A study of Mus musculus with 2 samples.

Results

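The genes described here are the microRNA genes that gave signal above background on arrays of mouse alveolar macrophages, which live in the air spaces of the lung. They were chosen by symbol (Mir followed by a digit, or Mirlet, without host genes) and by a mean log2 value over 5.0 across both arrays, with the feature of highest mean for each gene, a feature being 1 measured unit of the array. This rule took 88 of 478 microRNA genes that the platform annotation names by 1 symbol (18.4%), among 22180 such genes in all. The rule used the level, so the levels below are a description, and no test was made on them.

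The series held 2 Affymetrix gene-level arrays of total RNA from alveolar macrophages, which had been flow-sorted out of lung at a mouse age of 8 to 10 weeks. The control array came from mice labelled Lysm-Cre, and the other array from mice labelled Lysm-CreSsu72fl/fl, so both carried Lysm-Cre, a Cre recombinase under control of the myeloid lysozyme gene Lyz2, and only the second was labelled with the floxed Ssu72 alleles. The Ssu72 protein removes phosphates from the tail of RNA polymerase II. The sources used here do not say how many mice contributed to an array. With 1 array per genotype no difference between genotypes could be tested: there is no p-value and no standard error, and precision is limited by having so few arrays. Since these are bulk samples, fewer cells of a type and less RNA per cell cannot be told apart. A difference is always the log2 value of the Ssu72fl/fl-labelled array minus that of the control array. As a measure of scatter, the text gives the robust SD of differences among features of similar level, called the spread, which describes scatter between features and not between animals.

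Ssu72 itself had values of 4.86 (control) and 4.998 (Ssu72fl/fl-labelled), a difference of 0.14 against a spread of 0.15. The targeted gene was therefore not lower on the array labelled as its knockout, where its probes lie with respect to the floxed exons is unknown here, and every direction below rests on the label. All 18 alveolar macrophage markers measured had a mean over 5.0, among them Chil3 (9.42 and 9.30) and Itgax (7.31 and 6.82). None of 4 neutrophil and 3 T cell markers did, and Ly6g and Cd3e lay at the floor of 4.65, the median of all values, on both arrays. Over 5.0 were 3 of 4 markers each of monocytes, endothelium, fibroblasts and alveolar type 2 cells (Sftpc 8.71 and 8.35), and 2 of 3 each of B cells and of club and ciliated cells (Scgb1a1 8.02 and 7.99). Mean log2 values (control array first) were 7.09 and 6.81 for alveolar macrophage markers, 6.43 and 6.20 for type 2 cell markers, and 5.65 and 5.32 for monocyte markers. Their part in the microRNA values was not tested.

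MicroRNAs are short RNAs cut from a hairpin, first in the nucleus by Drosha with Dgcr8 and then in the cytoplasm by Dicer1. One strand is loaded onto an Argonaute protein and pairs with messenger RNAs mainly through its seed, bases 2 to 8 from the 5′ end, which lowers their stability and translation. Most microRNA genes are transcribed by RNA polymerase II, alone, in clusters or inside the introns of other genes. In macrophages they are known as regulators of differentiation and of the inflammatory response. An array feature stands for the microRNA gene: the sources used here do not say which stretch of the locus its probes cover, so primary transcript, hairpin and mature forms, and the 2 arms of a hairpin, cannot be told apart.

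Of the 88 genes, 72 had an entry in the RefSeq microRNA table (GRCm38.p6), and 112 mature forms of 70 genes carried 108 distinct seeds. The sequences shown first are a selection from the genes whose values differed by at least 1.5-fold between the arrays, since these carry the comparison. They are written 5′ to 3′ with the seed in capitals. The first 5 come from genes that were higher on the Ssu72fl/fl-labelled array.
mmu-miR-483-5p: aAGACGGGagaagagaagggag
mmu-miR-483-3p: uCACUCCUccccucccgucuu
mmu-miR-1943-5p: aAGGGAGGaucugggcaccugga
mmu-miR-339-5p: uCCCUGUCcuccaggagcucacg
mmu-miR-339-3p: uGAGCGCCucggcgacagagccg
The next 8 come from genes that were lower on that array.
mmu-miR-101c: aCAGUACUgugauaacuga
mmu-miR-2137: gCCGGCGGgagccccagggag
mmu-miR-5123: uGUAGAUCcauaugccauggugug
mmu-miR-341-3p: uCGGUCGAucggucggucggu
mmu-miR-345-5p: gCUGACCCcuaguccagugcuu
mmu-miR-680: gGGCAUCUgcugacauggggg
mmu-miR-1954: aCUGCAGAgugagacccuguu
mmu-miR-1195: uGAGUUCGaggccagccugcuca
No 2 genes of these sets shared a seed. The RefSeq hairpins lie at chr7:142654924-142654996 (minus strand) for Mir483, chr15:79375228-79375300 (minus) for Mir1943 and chr5:139369650-139369745 (minus) for Mir339. Those of the lower genes include chrX:72992079-72992144 (plus) for Mir2137, chr4:40850056-40850138 (minus) for Mir5123, chr12:109611500-109611595 (plus) for Mir341 and chr12:108836973-108837068 (plus) for Mir345. No source used here names the build of the array itself, so these are positions of the RefSeq sequences.

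The genes split almost evenly between the arrays on the deposited scale. Of the 88, 39 were higher and 49 lower on the Ssu72fl/fl-labelled array (44.3% higher), beside 40.2% of all 5319 genes with a mean over 5.0. The median difference was -0.060, beside -0.053 over all those genes. This near balance depended on the scaling, because differences drifted with the level of a gene. When this trend was subtracted as a fitted curve, called level-adjusted below, 56 of 88 genes were higher (63.6%, median 0.20), beside 53.8% of all genes (median 0.020). After quantile normalization 55 were higher (62.5%, median 0.18), beside 52.5% of all genes (median 0.013). No direction can therefore be given for the microRNA genes as a group.

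**Figure D1:**
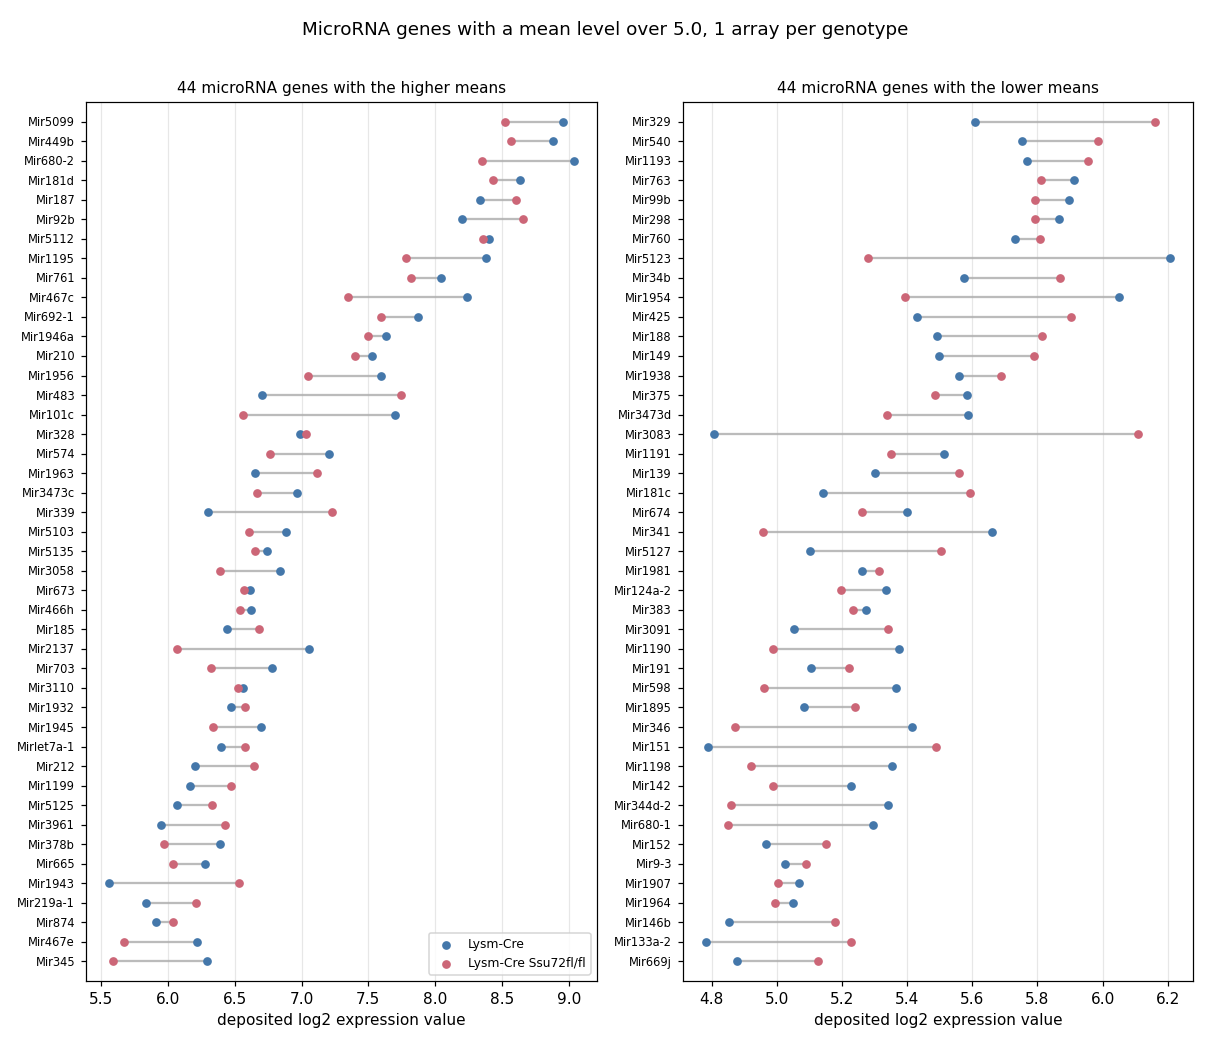
Deposited log2 values of the 88 microRNA genes on the Lysm-Cre array and on the array labelled Lysm-CreSsu72fl/fl, 1 point per array, ordered by mean level. The panels have separate x axes. The longest bars belong to Mir3083, Mir101c and Mir483.

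The differences of the 88 microRNA genes had a larger robust SD than those of all genes, given as a description. Their robust SD was 0.48, beside 0.22 over all genes with a mean over 5.0 and 0.22 over 4835 protein-coding genes. The sets differed in level, with a median of 5.91 for the microRNA genes and 5.32 for all genes. At a mean level of 5 to 6 the robust SD was 0.36, beside 0.19 over all genes. From 6 to 9 the contrast was smaller, at 0.46 beside 0.33. After level adjustment the microRNA genes had 0.38, beside 0.21 over all genes with a mean over 5.0. At least 2-fold higher were 2 of 88 microRNA genes (2.27%), beside 0.0752% of all genes, and 1 was at least 2-fold lower (1.14%, beside 0.207%). At a threshold of 1.5-fold, 5 were higher (5.68%, beside 0.696%) and 9 lower (10.2%, beside 3.33%), 14 in all (15.9%, beside 4.02%). After level adjustment, 11 genes were at least 1.5-fold higher (12.5%, beside 1.75%) and 4 lower (4.55%, beside 0.733%), 15 in all (17.0%, beside 2.48%), while 4 were 2-fold higher (beside 0.207%) and none 2-fold lower (beside 0.0188%). Quantile normalization gave 12 genes at least 1.5-fold higher (13.6%, beside 1.77%) and 4 lower (beside 0.808%), 16 in all (18.2%, beside 2.58%), with 4 at least 2-fold higher (beside 0.244%) and none lower (beside 0.0188%). The share of all genes past 1.5-fold was larger above level 6 than below it, so bands of level were compared as well. At a mean level of 5 to 6, 6 of 47 microRNA genes differed by 1.5-fold either way (12.8%), beside 1.61% of 4463 genes. Among these 6, Mir3083, Mir151 and Mir341 were over 5.0 only on the array on which they were high. They entered the group through that array, so this count is no support for a larger scatter. In all, 9 of the 88 were over 5.0 on the control array only and 6 on the other only. Such genes also enter the robust SDs and shares over all 88 and from 5 to 6, which are no support either. From 6 to 9, 8 of 41 microRNA genes differed by 1.5-fold (19.5%), beside 16.8% of 802 genes. In that upper band the level-adjusted counts were 10 of 41 (24.4%) beside 9.10%. Genes of one array are not replicates, so these shares have no test.

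Small nucleolar and small Cajal body RNA genes, which are also short non-coding RNAs, gave another picture. All 69 of them with a mean over 5.0 were lower on the deposited scale, from -1.07 to -0.075 (median -0.42), whereas the microRNA genes ran from -1.14 to 1.30. After level adjustment 31 of the 69 were higher, with a median of -0.075. Between levels 6 and 9, 15 of 41 microRNA genes were higher on the deposited scale, beside none of 38 small nucleolar and Cajal body RNA genes and 151 of 663 protein-coding genes (22.8%). With the level curve removed these became 29 of 41 (70.7%), 19 of 38 and 364 of 663 (54.9%). Within this band the classes still differed in level. Median levels were 6.77 for microRNA genes, 6.39 for protein-coding genes and 8.05 for small nucleolar and Cajal body RNA genes. The difference in direction between these classes could not be tested with 1 array per genotype.

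**Figure D2:**
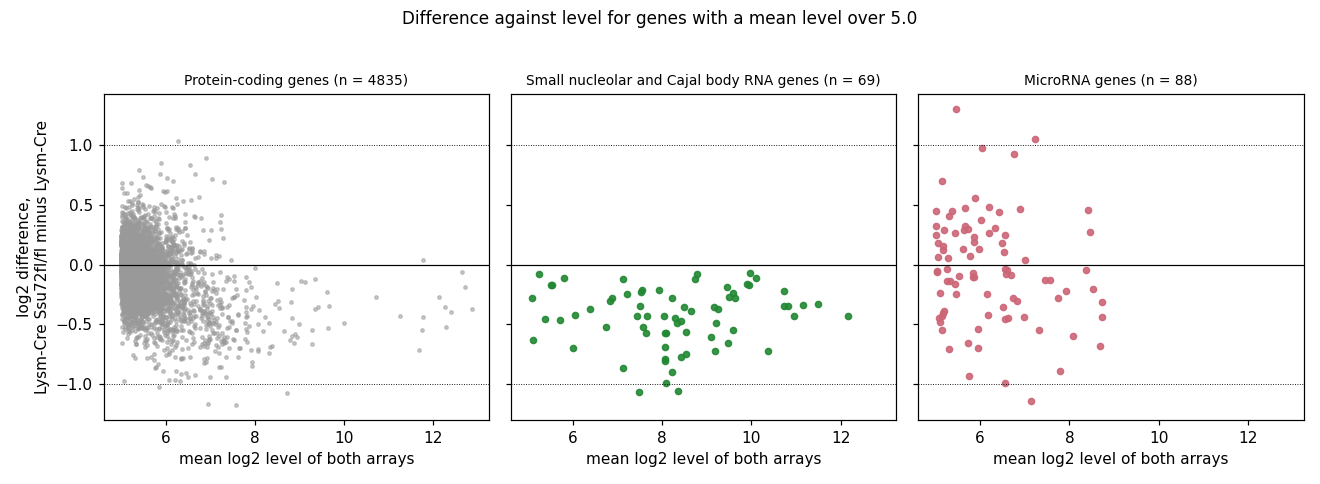
Log2 difference (Ssu72fl/fl-labelled minus control) against the mean log2 level of both arrays for protein-coding genes, small nucleolar and small Cajal body RNA genes, and microRNA genes with a mean over 5.0. Points are genes and dotted lines mark a 2-fold difference. All 69 points of the middle panel lie below 0, and 39 of the 88 microRNA points lie above it.

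The 2 microRNA genes at least 2-fold higher on the Ssu72fl/fl-labelled array were Mir3083 and Mir483. Mir3083 read 4.81 (control) and 6.11, a difference of 1.30 (2.46-fold) against a spread of 0.22. Its control value was below 5.0, so it entered the group only through the array on which it was high. Mir483, which lies within the growth factor gene Igf2, read 6.70 and 7.75, a difference of 1.04 (2.06-fold) against a spread of 0.39. Both stayed beyond 2-fold when level-adjusted, at 1.37 and 1.49.

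Mir1943, Mir339 and Mir151 were higher by 1.5-fold to 2-fold. Mir1943, in the membrane protein gene Tmem184b, read 5.56 and 6.53 (0.97, spread 0.28, level-adjusted 1.16). Mir339 read 6.304 and 7.23 (0.92, spread 0.39, level-adjusted 1.28). Mir151, which lies within the focal adhesion kinase gene Ptk2, read 4.79 and 5.49 (0.70, spread 0.19, level-adjusted 0.73) and also had a control value under 5.0. With its control value raised to the 75th percentile of all values, Mir151 no longer differed by 1.5-fold. All 5 higher genes kept their sign in each of the 8 scalings, floors and feature rules tried.

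Mir101c was the 1 gene at least 2-fold lower. It belongs to the miR-101 family by name and read 7.70 (control) and 6.56, a difference of -1.14 (2.20-fold) against a spread of 0.39. When level-adjusted its difference was -0.71, under 2-fold. Mir2137, on the X chromosome within the span of Zfp185, read 7.05 and 6.07 (-0.99, level-adjusted -0.67). Mir5123, within the galactosyltransferase gene B4galt1, read 6.21 and 5.28 (-0.93, spread 0.28, level-adjusted -0.81).

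The other 6 lower genes differed by 1.5-fold to 2-fold, and 5 of them lost this when level-adjusted. Mir467c, of the large Sfmbt2 cluster, read 8.24 and 7.35 (-0.89, level-adjusted -0.38). Mir341, of an imprinted cluster on chromosome 12, read 5.66 and 4.96 (-0.71, level-adjusted -0.66) and kept the 1.5-fold difference. The latter array had it under 5.0, so it entered through the control array. Mir345 read 6.29 and 5.59 (-0.70, level-adjusted -0.53), and Mir680-2 read 9.03 and 8.35 (-0.68, level-adjusted -0.22). Mir1954, in the endothelial co-receptor gene Eng, read 6.05 and 5.39 (-0.66, level-adjusted -0.54), and Mir1195 read 8.38 and 7.78 (-0.60, level-adjusted -0.10). For Mir467c, Mir680-2 and Mir1195 the level-adjusted value lay inside the spread of 0.39.

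The level adjustment brought 6 further genes to at least 1.5-fold higher. Mir92b, whose seed is that of the miR-92a family, read 8.20 and 8.65 (0.46, level-adjusted 0.94). Mir1963 read 6.65 and 7.12 (0.46, level-adjusted 0.85), and Mir187, known to be induced in monocytes by an anti-inflammatory cytokine, read 8.33 and 8.61 (0.27, level-adjusted 0.76). Mir212, Mir329 and Mir3961 had level-adjusted differences of 0.72, 0.71 and 0.70. Their deposited values were 6.20 and 6.64 for Mir212, 5.61 and 6.16 for Mir329, and 5.95 and 6.43 for Mir3961. Each of these 6 genes was higher on the Ssu72fl/fl-labelled array on both scales.

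The 10 genes with the highest means were Mir5099, Mir449b, Mir680-2, Mir181d, Mir187, Mir92b, Mir5112, Mir1195, Mir761 and Mir467c. Their order carries no comparison of abundance, since each feature has its own probes. Mir5099 read 8.95 and 8.52, a difference of -0.44 that became 0.021 when level-adjusted and -0.013 after quantile normalization. Mir449b, known from multiciliated airway cells, read 8.88 and 8.57 (-0.31, level-adjusted 0.15). Its close neighbours did not share this level: Mir449a read 4.65 and 4.66, and Mir449c was at the floor on both arrays. Cdc20b, whose span holds Mir449b, was at the floor on both arrays as well. Mir181d read 8.64 and 8.43 (-0.21), Mir5112 read 8.40 and 8.35 (-0.049) and Mir761 read 8.04 and 7.82 (-0.22), and these 3 also turned to the higher side when level-adjusted (0.27, 0.44 and 0.28). Outside this group, Mir210, a target of the hypoxia response, read 7.53 and 7.40 (-0.13, level-adjusted 0.34). Over all 88 genes, 17 had opposite signs on the deposited and level-adjusted scales, none of them among the 14 that differed by 1.5-fold on the deposited scale.

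The 4 genes just inside the threshold were Mir1964 (5.05 and 4.99), Mir146b (4.85 and 5.18), Mir133a-2 (4.78 and 5.23) and Mir669j (4.88 and 5.13). Just outside lay Mir666 (4.75 and 5.25), Mir5120 (4.998 and 4.996), Mirlet7e (4.85 and 5.11) and Mir326 (4.87 and 5.07). Of the 88 genes, 73 were over 5.0 on both arrays, 9 on the control array only and 6 on the other only. None fell under the floor of 4.65 on either array, and the lowest value was 4.78. Restricting the group to the 73 genes left 33 higher and 40 lower, with 3 at least 1.5-fold higher and 8 lower. All genes were not restricted in the same way, so no background share stands beside these counts.

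A list of 60 microRNA genes studied in macrophages and other blood cells was looked up. Of these 45 were measured under 1 symbol, 9 had a mean over 5.0, a share near the 18.4% of all microRNA genes, and 28 lay at or below the floor. Most of the 478 microRNA genes also lay at or below the floor, so this is no trait of the list. The mature forms of 4 of these 9 are shown for reference, since their seeds define well-studied families.
mmu-miR-142a-3p: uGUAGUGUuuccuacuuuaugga
mmu-miR-146b-5p: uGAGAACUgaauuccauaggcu
mmu-miR-212-3p: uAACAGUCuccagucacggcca
mmu-miR-191-5p: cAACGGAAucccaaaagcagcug
Mir142, a gene specific to blood cells, read 5.23 and 4.99 (-0.24, spread 0.19). Mir146b, which restrains signalling to NF-kappaB, read 4.85 and 5.18 (0.32, spread 0.16). Each was over 5.0 on 1 array only, the one on which it was high, so both entered the group through that array. Mir191 read 5.11 and 5.22 (0.12), and a second feature of this gene read 4.64 and 5.03 (0.39), the same direction. It was the 1 gene of the 88 with a second feature.

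Of the remaining listed genes, Mir187, Mir212 and Mir339 have been given above. Mir99b, which is processed from one transcript with Mirlet7e, read 5.90 and 5.79 (-0.10). Mir9-3 (5.02 and 5.09) and Mir124a-2 (5.33 and 5.20), also known from neurons, differed by less than the spread. In all, 6 of the 9 were higher and 3 lower, with a median of 0.12 (level-adjusted 0.15). Beside this, 44.3% of the 88 microRNA genes (median -0.060, level-adjusted 0.20) and 40.2% of all genes with a mean over 5.0 were higher. The 9 include Mir142 and Mir146b, which entered through 1 array, and so few genes give no direction. Mir221, Mir222, Mir29a and Mir511 were among the listed genes at or below the floor on both arrays.

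Neighbouring genes did not share a common direction. Of the 88, 12 lay within 10 kb of another gene of the group, in 6 pairs, and 3 pairs had the same sign on the deposited and 3 on the level-adjusted scale. The strand was not available for 3 pairs. Mir425 (5.43 and 5.90, 0.47) and Mir191 (0.12), both inside Dalrd3, were higher together. Mir329 (0.55) and Mir1193 (5.77 and 5.95, 0.19) were also higher together, and Mir466h (6.62 and 6.54, -0.077) and Mir467e (6.21 and 5.68, -0.54) lower together, although this pair split when level-adjusted (0.24 and -0.37).

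The other 3 pairs were split. Mir181d was lower (-0.21) and Mir181c (5.14 and 5.59) higher (0.45), although when level-adjusted both were higher (0.27 and 0.51). Mir665 (6.28 and 6.04, -0.24) and Mir540 (5.75 and 5.99, 0.23) differed in sign on both scales, as did Mir467c (-0.89) and Mir669j (0.25). The 5p forms of Mir181c and Mir181d share the seed ACAUUCA and are shown to compare them.
mmu-miR-181c-5p: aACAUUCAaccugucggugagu
mmu-miR-181d-5p: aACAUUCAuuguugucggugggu
Some genes of the group had close neighbours at the floor, where most microRNA genes lay. Mirlet7a-1 read 6.40 and 6.57 (0.18), while Mirlet7d and Mirlet7f-1 of its cluster were at the floor on both arrays. The same held for Mir132, the partner of Mir212, and for Mir34c, the partner of Mir34b (5.57 and 5.87, 0.30).

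A pair of large clusters were described after their values had been seen. The imprinted region between Dlk1 and Dio3 on chromosome 12, whose microRNAs are transcribed from the maternal chromosome, held 43 measured microRNA genes, of which 6 were over 5.0 and 27 at or below the floor. Mir329, Mir540 and Mir1193 were higher, and Mir341, Mir665 and Mir673 (6.62 and 6.57, -0.049) lower. The non-coding host RNAs Meg3 and Rian of this region were at the floor on both arrays. Inside Sfmbt2, which holds a rodent-specific cluster, 4 of 22 measured microRNA genes were over 5.0 and 17 at or below the floor. Of these 4, Mir669j was higher and Mir467c, Mir467e and Mir466h lower, although Mir466h was higher when level-adjusted (0.24). Over all microRNA genes 18.4% were over 5.0 and most lay at or below the floor. The counts by level are therefore no trait of either cluster.

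Shared mature sequences gave few checks. Among the mature forms of the group 4 seeds were shared by 2 genes each. Mir680-1 and Mir680-2 carry the same mature sequence from different chromosomes, and both were lower, at 5.29 and 4.85 (-0.44) for Mir680-1 and -0.68 for Mir680-2. The seed AGGGAGG joins miR-149-3p and miR-1943-5p, whose genes were both higher: Mir149 read 5.498 and 5.79 (0.29), beside 0.97 for Mir1943. The 2 forms are alike only at the start.
mmu-miR-149-3p: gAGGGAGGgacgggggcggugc
mmu-miR-1943-5p: aAGGGAGGaucugggcaccugga
The fourth shared seed, CACUGAG, occurs in miR-3473d and miR-674-5p, whose genes were both lower (-0.25 and -0.14). When level-adjusted, the signs of these 3 pairs were the same as on the deposited scale.

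Most of the microRNA genes lay inside other genes. By RefSeq gene spans, 53 of the 88 lay within the span of a protein-coding gene, 30 of them on its strand, and for 28 of these the outer gene was measured (Dalrd3 for both Mir425 and Mir191). In all 28 pairs the outer gene differed by less than 1.5-fold, from -0.34 to 0.23, while 6 of the 28 microRNA genes passed that threshold. Only 8 of the 28 outer genes had a mean over 5.0, and 8 had a mean at or below the floor. Differences of 1.5-fold were rare at low levels, with 1.61% of all genes at a mean level of 5 to 6. The outer genes therefore give little contrast with the microRNA genes. The tables used here do not separate exons from introns. Igf2, which holds Mir483 (1.04), read 4.94 and 4.89 (-0.054). Tmem184b, which holds Mir1943 (0.97), read 5.43 and 5.40 (-0.024). The gene 3110082I17Rik, which holds Mir339 (0.92), read 5.43 and 5.17 (-0.26), the opposite direction.

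The 3 lower microRNA genes past the threshold also had outer genes that differed less. B4galt1 read 5.22 and 5.07 (-0.15) beside -0.93 for Mir5123, and Eng read 4.95 and 4.83 (-0.11) beside -0.66 for Mir1954. Zfp185 was at the floor on both arrays beside -0.99 for Mir2137. Outside these, Mir761 (-0.22) lay in Nrd1, which differed more (5.49 and 5.15, -0.34). The 1 same-strand outer gene with a mean over 6.0 was Srrm2, which encodes a large splicing-related protein. It read 7.17 and 6.97 (-0.20, level-adjusted 0.22), while Mir5125 inside it read 6.07 and 6.33 (0.26, level-adjusted 0.49).

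In 21 of the 28 pairs the outer gene was above the floor on at least 1 array. Signs were the same in 9 of the 21 on the deposited scale, and in 12 when level-adjusted and 12 after quantile normalization, which were added after the values were seen. Across these 21 pairs, which share both arrays, the differences correlated weakly (Pearson r = 0.048, Spearman rho = 0.11), given as a description only. Dalrd3 (4.66 and 4.89, 0.23) was higher together with both its microRNA genes, Mir425 and Mir191, and Klhl3 (4.68 and 4.82, 0.14) together with Mir874 (5.91 and 6.04, 0.13).

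**Figure D3:**
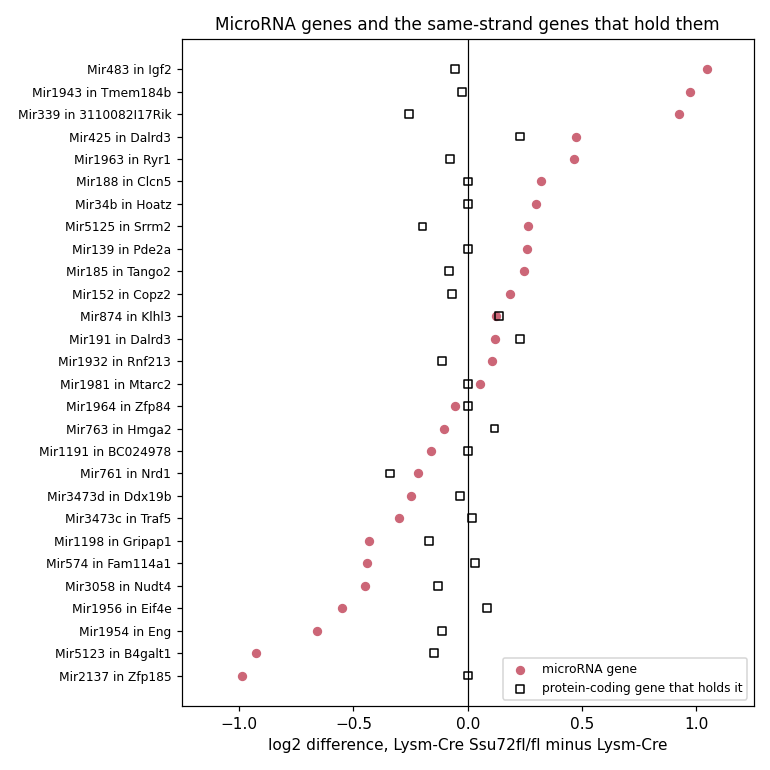
Log2 difference (Ssu72fl/fl-labelled minus control) of 28 microRNA genes and of the same-strand protein-coding gene that holds each of them. The squares lie between -0.34 and 0.23, and the microRNA points between -0.99 and 1.04. A square at 0 marks an outer gene at the floor on both arrays.

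The hairpins of the group were richer in G and C than those of other microRNA genes, a feature that the rule did not use. The RefSeq hairpin was available for 67 of the 88 genes and for 333 microRNA genes at or under 5.0. The median GC share was 58.5% (range 31.2 to 74.8%) in the group and 47.0% (range 26.2 to 69.0%) in the others, with median lengths of 83 and 84 nucleotides. Over 60% GC lay 29 of the 67 hairpins (43.3%), beside 14 of 333 (4.204%). Read the other way, the share of microRNA genes with a mean over 5.0 was 3 of 63 at a GC share of at most 40% (4.76%), 11 of 164 from there to 50% (6.71%), 24 of 130 to 60% (18.5%) and 29 of 43 above 60% (67.4%). Across all 400 genes, level and GC share correlated (Pearson r = 0.471, Spearman rho = 0.615). That is a description across genes measured on the same arrays, and whether base composition moved the signal was not tested.

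Some genes of the group departed from this. Mir5099 (37.8% GC), Mir703 (31.2%) and Mirlet7a-1 (42.6%) had hairpins of low GC share, and Mir703 read 6.78 and 6.32 (-0.45). Conversely, 14 of the 43 genes above 60% GC had a mean at or under 5.0. Mir1199, at 74.8% the highest of the group, read 6.17 and 6.47 (0.31). A run of GGGG on the hairpin's own strand occurred in 22 of 67 hairpins of the group (32.8%) and in 69 of 333 of the others (20.7%), beside 22.8% of all 400. This run overlaps with the GC share, and a match says only that the letters occur.

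The share of higher genes was somewhat larger at higher GC share. Of genes at up to 50% GC 5 of 14 were higher (median -0.27), from 50 to 60% 11 of 24 (median -0.044) and above 60% 15 of 29 (median 0.074). When level-adjusted these were 7 of 14 (median -0.038), 16 of 24 (median 0.21) and 20 of 29 (median 0.26). Of all genes with a mean over 5.0, 40.2% were higher, and 53.8% when level-adjusted. The GC groups also differed in level, with medians of 5.72, 5.85 and 6.42 in the same order. Across the 67 genes the correlation of GC share with the difference was weak (Pearson r = 0.131, Spearman rho = 0.197, and 0.184 and 0.260 when level-adjusted), given as a description. Each of these 3 groups held genes at least 1.5-fold different. Mir3083 (35.9% GC) was in the lowest, Mir483 (58.9%) in the middle, and Mir339 (66.7%) and Mir2137 (60.6%) in the highest.

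**Figure D4:**
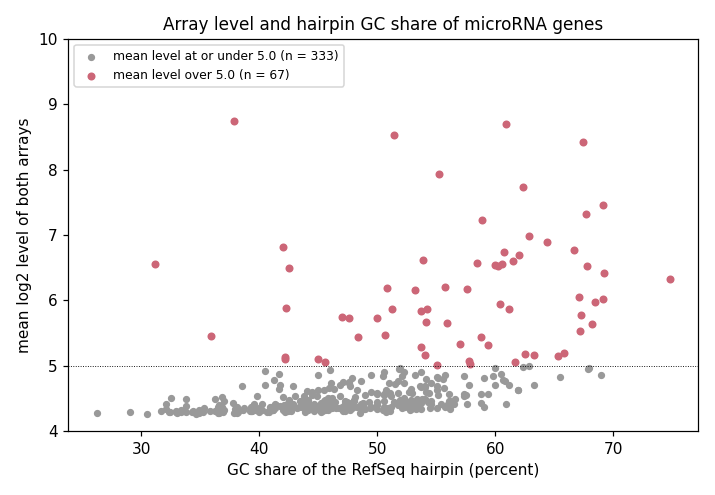
Mean log2 level of both arrays against the GC share of the RefSeq hairpin for 400 microRNA genes, with the 67 genes over 5.0 in colour and the dotted line at that threshold. Above 60% GC, 29 of 43 genes lie over the line, and at most 40% GC, 3 of 63.

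The genes that make and use microRNAs differed little between the arrays. Of 44 listed, 38 were measured under 1 symbol and 27 were above the floor on at least 1 array. Of these 27, 8 were higher and 19 lower (median -0.077), beside a median of -0.0068 and 48.1% higher over all 13015 genes compared in this way. When level-adjusted 12 of the 27 were higher (median -0.033). None of the 27 differed by 1.5-fold. Of them, 16 had a mean over 5.0, and 4.02% of all genes with such a mean differed by 1.5-fold. A count of 0 among so few genes is near that share. The nuclear processing enzyme gene Drosha read 4.75 and 4.75 (-0.0056), and the export factor gene Xpo5 read 4.74 and 4.70 (-0.039).

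Dicer1 was at the floor on both arrays, and Dgcr8 was not analysed here. Ago2, the Argonaute that can cut its target, read 5.06 and 4.91 (-0.15, spread 0.16). The lowest differences were those of Hnrnpa2b1, an RNA-binding protein (5.89 and 5.52, -0.37), Ddx5, a helicase of the Drosha complex (8.15 and 7.88, -0.27, level-adjusted 0.23), and the decapping enzyme gene Dcp2 (4.88 on the control array and below the floor on the other, -0.23). Highest were Lin28a, which blocks let-7 processing (4.90 and 5.20, 0.30, spread 0.16), Tarbp2, a Dicer partner (below the floor on the control array and 4.86 on the other, 0.21), and Khsrp (5.35 and 5.52, 0.17). The values of Dcp2 and Tarbp2 are bounds, since one array lay below the floor.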

How the data were processed

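The deposited table holds 1 log2 value per array for each of 33793 features. That it is log2 was taken from the range, 4.23 to 13.5. MAS5 is named by the submitters' processing notes without its role, and normalization and build are unknown here. Column medians were 4.65 and 4.66. RNA (6 ug) was labelled as biotinylated cRNA, per the labels' protocols.

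Of the features, 23521 carried 1 platform symbol and were used, 1814 several and 8458 none. Values below the 50th percentile of all values (4.65) were set to it. The spread came from 20 bins of mean level. The level-adjusted difference removes a lowess curve (fraction 0.3) through medians of level bins 0.1 wide with at least 10 features. Procedures were tested on simulated arrays. Python 3.11.15, pandas 2.3.3 and statsmodels 0.14.6 were used. Alternatives were other scalings, floors, feature rules and thresholds.

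Named were Ssu72, genes at least 1.5-fold different, the 10 highest means, 4 genes each side of the threshold, listed blood-cell genes, same-strand hosts over 6.0, neighbours, and the 3 highest and 3 lowest biogenesis genes with Drosha, Xpo5, Dicer1 and Ago2. Further names were added after their values were seen. The microRNA genes and lists were chosen with earlier results of these data known.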

Additional observations from a re-analysis of the deposited data

How the results depend on the processing

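All alternatives listed were run. Median centring, floors at the 25th or 75th percentile, no floor and averaging a gene's features kept the sign of all 88 differences, and the 14 genes stayed at least 1.5-fold different, except Mir151 under the 75th percentile (13 left). With median centring 2 genes were at least 2-fold lower. Level adjustment and quantile normalization moved most counts: the median difference was 0.20 with the binned curve, 0.19 with a loess over all features and 0.18 with quantile normalization. With either curve 32 genes were lower, and with all 3 settings 0 genes were at least 2-fold lower, 4 at least 2-fold higher and 4 at least 1.5-fold lower. At least 1.5-fold higher were 11 genes with either curve and 12 with quantile normalization. In these 3 settings 9 of the 14 genes remained 1.5-fold different, all 14 with the same sign. With a threshold of 5.5, 25 of 59 genes were higher and 34 lower. The group had 73 genes with 5.0 required on both arrays and 84 with 5.0 required on the control array. With each of these 3 restrictions, 1 gene was at least 2-fold higher and 3 at least 1.5-fold higher. All genes were not restricted in these ways, so these counts have no background share. The median of the biogenesis genes was 0 under the 75th-percentile floor, to which more of their values are set. Signal near background limits the weakest genes: 9 were over 5.0 on the control array only and 6 on the other only. No paired analysis was possible because each genotype had 1 array.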

Other observations

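A further 136 features carried a microRNA symbol together with other symbols and were left out of all counts. Of these, 35 had a mean over 5.0, with 14 higher and 21 lower on the Ssu72fl/fl-labelled array (median -0.062, range -0.56 to 1.38). At least 1.5-fold higher was 1 feature, and 0 were 1.5-fold lower. Of all 5319 genes with a mean over 5.0, 40.2% were higher, 0.696% at least 1.5-fold higher and 3.33% at least 1.5-fold lower. So few features give no contrast with those shares.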
